A study of Sus scrofa with 28 samples.

Results

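Calpains, cathepsin D and the proteasome activators were followed through the 8 probes whose platform annotation gives exactly 1 symbol equal to CAPN2, CAPN3, CAPNS1, CTSD, PSME1 or PSME3. They stand for 6 of the 211 genes named on the array, and are 8 of its 4608 probes, of which 509 carry a single gene symbol. CAPN3 and PSME1 have 2 probes each and the other 4 genes have 1. Total RNA was taken from the semimembranosus (part of the ham) in 14 pigs. The normal group held 7 pigs whose meat had a low L* value (a lightness reading, low in dark meat), and the destructured group held 7 pigs with a high L* value, whose meat was pale and lost its structure. The groups are thus defined by the meat itself; breed, age, sex and treatment are not given in the sources used here. Nothing in the labels describes an allele or an agent in either group. One pig number occurs in both groups, for normal replicate 2 and for destructured replicate 3, and whether it stands for 1 animal is not stated. Each pig's RNA, labelled with radioactive phosphorus, was hybridised to 1 nylon array that carries every probe in a left and a right part.

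Muscle breaks down its proteins through several routes, and these genes belong to 3 of them. Calpains are calcium-activated cysteine proteases of the cytosol that cut proteins of the myofibril at few sites, and their activity after slaughter softens meat. Cathepsin D works in the acid interior of the lysosome. Proteasome activators cap the barrel-shaped proteasome and open its entry to short peptides without the need for ubiquitin.

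None of the 8 probes passed the test of destructured against normal muscle. By limma's moderated test with Benjamini-Hochberg adjustment over all probes, 0 of 8 passed an adjusted p of 0.05, where 0.651% of all probes passed. At an unadjusted p under 0.05 the count was again 0 of 8, against 13.0% of all probes. By the exact permutation test with the same adjustment it was 0 of 8, where 59 of all 4608 probes passed. The log2 fold change (destructured minus normal) was positive for 3 probes and negative for 5, from -0.61 to 0.33, with a median of -0.12; over all probes 46.3% were positive and the median was -0.021. The groups of 7 pigs overlapped for every one of the 8 probes, while 1.28% of all probes had groups that did not overlap. These are the 59 probes that passed the exact permutation test, whose smallest p only such probes reach. The overlap and that test are thus not separate results. In the simulated data described with the processing, the same test found 28% of the probes given a log2 change of 0.5 and 90% of those given a change of 1, so changes near 0.5 were mostly missed there. Those rates are for probes drawn from the whole array, whose median standard deviation between pigs of a group was 0.32. Among the 8 probes it ran from 0.20 for CAPN3 probe 7494 to 0.65 for CAPN3 probe 8249, so the rates do not hold for each of them.

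**Figure D1:**
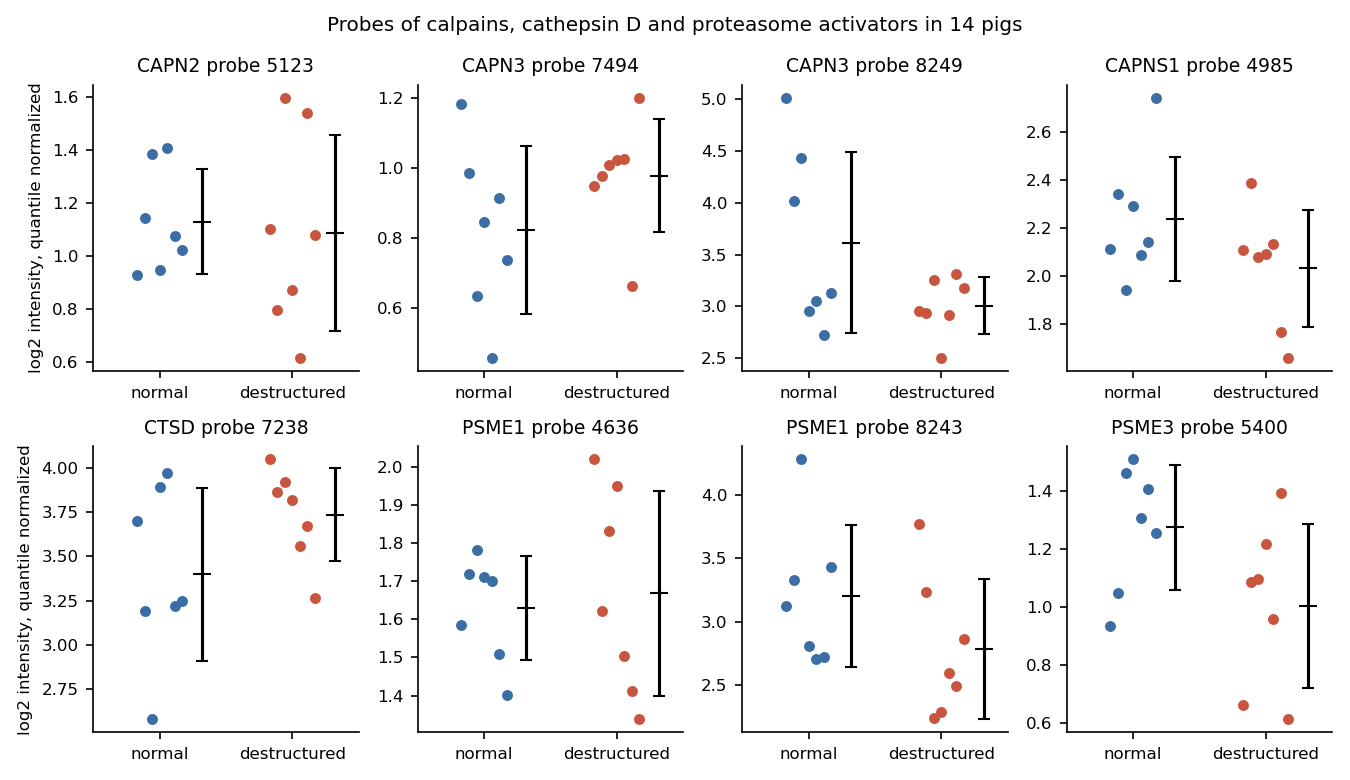
Quantile-normalized log2 intensity (vertical axis) of each of the 8 probes in the 7 normal and 7 destructured pigs, with 1 point per pig (left and right array parts averaged) and the group mean ± SD as a bar at the side. The groups overlap in every panel; for CAPN3 probe 8249, 3 normal pigs lie between 4.01 and 5.01, above the highest destructured pig at 3.32.

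The array as a whole sets the frame for these values. The correlation between the left and right part over all probes had a median of 0.947 over the pigs, and it was 0.380 for normal replicate 3 against 0.868 for the next lowest pig. The right part of that array is called the discordant part below. This correlation does not itself show which part departs, and a fit leaving out only the left part of that array was not run. Fold changes also went with the position of a probe among the rows of the table: rows repeat over 72 places (6 rows of 12 columns), and place accounted for 27.3% of the variance of the fold change. Values for the 8 probes are therefore given also without the discordant part and with the median deviation of each place removed. Of 26 skeletal muscle markers 17 were on the array, with 164 probes, and none of these was called by limma or the exact permutation test. At an unadjusted p under 0.05 there were 21 of 164, where 13.0% of all probes were. Their mean log2 level per pig ran from 1.52 to 1.71 in normal and from 1.51 to 1.56 in destructured pigs. Spot signals of different probes cannot be set against each other here, so these markers do not test the tissue label.

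The large subunit of the ubiquitous m-calpain, CAPN2 (Entrez gene 397393), was measured by probe 5123. Its log2 intensity ran from 0.93 to 1.41 with a median of 1.07 in normal pigs, and from 0.62 to 1.60 with a median of 1.08 in destructured pigs. The destructured pigs spread to both sides of the normal range, with destructured replicates 3 and 6 at the top and replicate 5 at the bottom. The means were 1.13 ± 0.197 and 1.09 ± 0.369 (SD, n = 7 each). The log2 fold change was -0.044 (SE 0.16, adjusted p = 0.935 by limma), with a 95% interval from 0.768-fold to 1.22-fold. Its sign was not stable: it was 0.17 on the deposited scale (log2 of the values with no quantile normalization), 0.030 without the discordant part and 0.13 with position medians removed, and with 1 pig left out it ran from -0.13 (without destructured replicate 3) to 0.035 (without destructured replicate 5).

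CAPNS1 (Entrez gene 397587), the regulatory subunit that pairs with the large subunit of the ubiquitous calpains, was measured by probe 4985. Normal pigs lay between 1.94 and 2.74, with a median of 2.14. Destructured pigs lay between 1.66 and 2.39, with a median of 2.09. The medians were close, and the lower destructured mean came with destructured replicates 6 and 7 (1.77 and 1.66), the only pigs of that group below the normal range. Destructured minus normal, the log2 fold change was -0.21 (SE 0.14, adjusted p = 0.561 by limma), 1.15-fold lower, with a 95% interval from 0.703-fold to 1.07-fold. The right parts of the arrays gave -0.44, and the left parts gave 0.019. In normal replicate 7 the parts were 1.43 apart, the widest gap for this probe, and without that pig the log2 fold change was -0.12. On the deposited scale it was -0.00033. Without the discordant part it was -0.18, and with position medians removed it was -0.24.

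The muscle calpain CAPN3 (Entrez gene 397349), which sits on titin in the sarcomere and whose loss causes a limb-girdle muscular dystrophy in people, had the largest difference of the set, on probe 8249. Its log2 intensity ran from 2.72 to 5.01 with a median of 3.13 in normal pigs. In destructured pigs it ran from 2.51 to 3.32 with a median of 2.96. All 7 destructured pigs were below the normal mean, but only 1 of them lay below the lowest normal pig. The normal mean was raised by replicates 1, 3 and 2, at 5.01, 4.43 and 4.01, and the other 4 normal pigs lay at 2.72 to 3.13, within the destructured range. Means were 3.62 ± 0.871 in normal and 3.01 ± 0.275 in destructured pigs (SD, n = 7 each). This gave a log2 fold change of -0.61 (SE 0.30, adjusted p = 0.403 by limma; exact two-sided permutation p = 0.120), 1.52-fold lower, with a 95% interval from 0.424-fold to 1.02-fold.

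The high values of CAPN3 probe 8249 were each seen on 1 part of the array only. Normal replicate 1 read 6.63 on the left part and 3.40 on the right. Normal replicate 3 read 2.65 on the left and 6.21 on the right, the part that correlates poorly with its left part over the whole array. Normal replicate 2 read 3.34 on the left and 4.69 on the right. The 7 destructured arrays had no gap above 1.05 between their parts. Without the discordant part the log2 fold change was -0.35 (SE 0.28, adjusted p = 0.597 by limma), without normal replicate 1 it was -0.37, and with array weights it was -0.36. With the left part of normal replicate 1 left out as well, an exclusion chosen after these values were seen, it was -0.12 (SE 0.18, adjusted p = 0.810 by limma). Other settings gave a larger difference: -0.71 with position medians removed (SE 0.28), -0.79 with median centring and -0.68 from the right parts alone. The left parts alone gave -0.54.

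**Figure D2:**
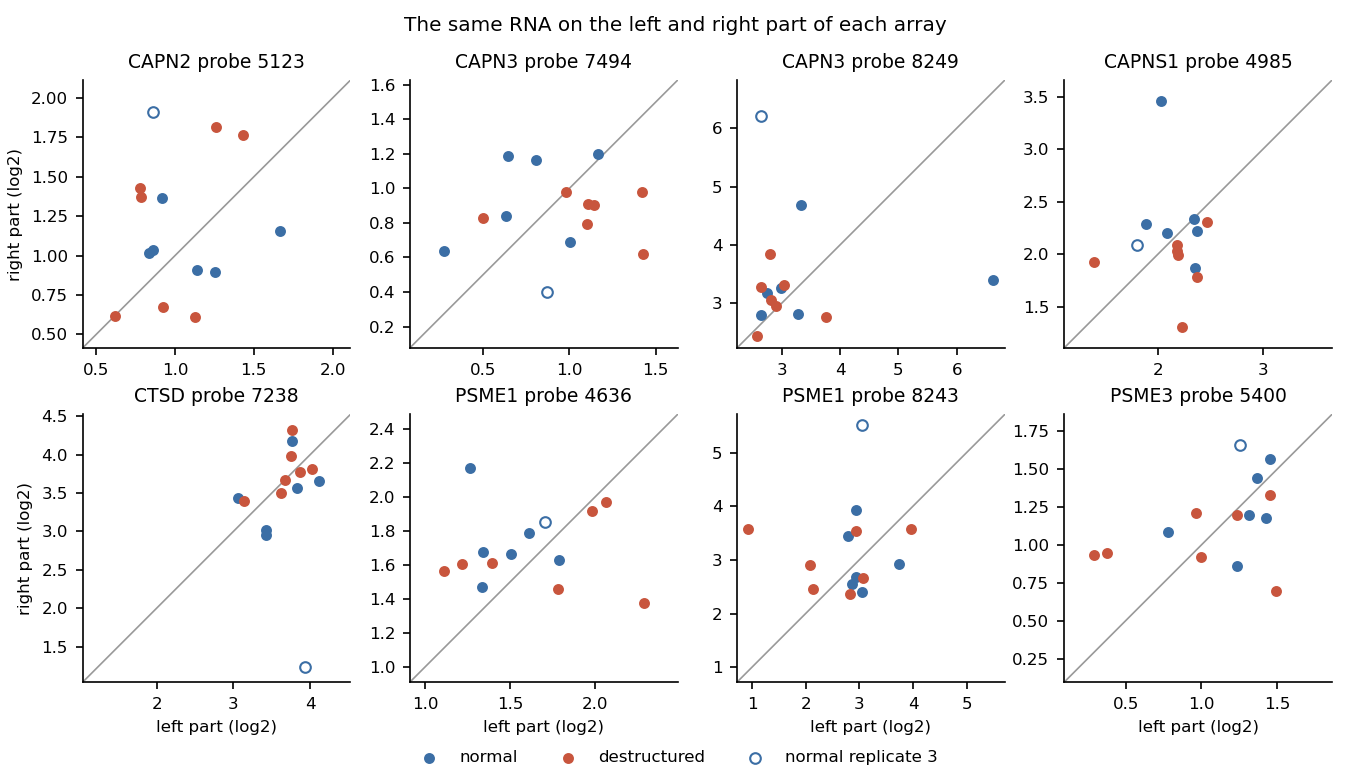
Log2 intensity of each probe on the left part (horizontal) and the right part (vertical) of the same array, 1 point per pig, with the line of equal values in grey and normal replicate 3 as an open circle. For CAPN3 probe 8249 normal replicate 1 lies far to the right (6.63 against 3.40) and normal replicate 3 far above (6.21 against 2.65), and CTSD probe 7238 lies near the line except in normal replicate 3.

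The second CAPN3 probe, 7494, had a positive value. Normal pigs lay between 0.46 and 1.18 with a median of 0.85, and destructured pigs between 0.66 and 1.20 with a median of 1.01. Of the 7 destructured pigs 6 were above the normal mean, in a narrow band from 0.95 to 1.20, and replicate 6 lay below it at 0.66. On the log2 scale the fold change was 0.16 (SE 0.13, adjusted p = 0.638 by limma), with a 95% interval from 0.923-fold to 1.34-fold. The left parts gave 0.32 and the right parts -0.017. On the deposited scale it was 0.40, with log2(intensity + 1) it was 0.099, and without normal replicate 5, the lowest pig, it was 0.095. The 64 probes that share its position averaged 0.12, and with position medians removed this probe was at 0.012. Without the discordant part it was at 0.12.

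Correlation between the CAPN3 probes across pigs was weak. Between 8249 and 7494 Pearson's r was 0.084 (permutation p = 0.779) and Spearman's rho -0.077 (permutation p = 0.797) over 14 pigs. Both p-values come from 100000 resamples; over the 2 gene pairs the adjusted values were 0.779 and 0.880. Within the 7 normal pigs r was 0.45, and within the 7 destructured pigs it was -0.29. Without the 2 pigs farthest from the median of 8249, normal replicates 1 and 3, it was -0.036. With the 2 probes averaged per pig the CAPN3 log2 fold change was -0.23 (SE 0.19, adjusted p = 0.639 by limma). Each value is therefore that of a probe listed for the gene.

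Cathepsin D, CTSD (Entrez gene 494568), the main aspartic protease of the lysosome, was measured by probe 7238 and had the most positive value. Normal pigs lay between 2.58 and 3.97 with a median of 3.25. Destructured pigs lay between 3.27 and 4.05 with a median of 3.82. In all, 6 of 7 destructured pigs were above the normal mean, and 4 of 7 normal pigs were below the lowest destructured pig. Means were 3.40 ± 0.487 and 3.74 ± 0.262 (SD, n = 7 each). Between the groups the log2 fold change was 0.33 (SE 0.20, adjusted p = 0.482 by limma; exact two-sided permutation p = 0.136), 1.26-fold higher, with a 95% interval from 0.948-fold to 1.68-fold.

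The lowest normal pig for CTSD was replicate 3, which read 3.93 on the left part and 1.23 on the right. In the other 13 pigs the parts were at most 0.56 apart, and they correlated at 0.534 across these pigs, the highest among the 8 probes. Without the discordant part the log2 fold change was 0.14 (SE 0.16, adjusted p = 0.718 by limma), and without normal replicate 3 altogether it was 0.20. The left parts alone gave 0.041, and the right parts alone gave 0.63. On the deposited scale it was 0.55, and with position medians removed it was 0.35.

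PSME1 (Entrez gene 397572) encodes a subunit of the cytosolic proteasome activator that is induced by interferon and feeds antigen presentation. On probe 8243 normal pigs lay between 2.71 and 4.28 with a median of 3.12, and destructured pigs between 2.24 and 3.77 with a median of 2.60. Of the destructured pigs 4 lay below the lowest normal pig, while destructured replicate 1 at 3.77 was exceeded by normal replicate 3 alone. The log2 fold change was -0.42 (SE 0.26, adjusted p = 0.515 by limma; exact two-sided permutation p = 0.190), 1.33-fold lower, with a 95% interval from 0.512-fold to 1.10-fold. The lowest destructured pig, replicate 3, read 0.92 on the left part and 3.57 on the right. The highest normal pig, replicate 3, read 3.05 on the left and 5.51 on the right.

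The difference of PSME1 probe 8243 was close to that of the other rows at its position. The 64 probes at that position, itself included, averaged -0.39, and with position medians removed the probe was at -0.014 (SE 0.21). Without the discordant part it was at -0.24, and with both changes it was at 0.11 (SE 0.19). It was at -0.24 on the deposited scale, -0.23 without normal replicate 3 and -0.27 with array weights.

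The other PSME1 probe, 4636, differed least, together with CAPN2. Normal pigs lay between 1.40 and 1.78 with a median of 1.70, and destructured pigs between 1.34 and 2.02 with a median of 1.62. The destructured pigs spanned the whole normal range and beyond on both sides. Destructured minus normal, the log2 fold change was 0.039 (SE 0.13, adjusted p = 0.928 by limma), with a 95% interval from 0.848-fold to 1.24-fold, and it was -0.12 with position medians removed. Without the discordant part it was 0.049. Its sign was not stable: it was 0.26 on the deposited scale, 0.18 from the left and -0.11 from the right parts, and from -0.020 (without destructured replicate 1) to 0.095 (without destructured replicate 7) with 1 pig left out. The PSME1 probes correlated across the 14 pigs at r = 0.15 (permutation p = 0.596, adjusted 0.779) and rho = 0.046 (permutation p = 0.880, adjusted 0.880). Within normal and destructured pigs r was 0.26 and 0.20, and without the 2 pigs farthest from the median of 8243 it was -0.39. Averaged per pig, the 2 probes gave a log2 fold change of -0.19 (SE 0.17, adjusted p = 0.662 by limma).

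**Figure D3:**
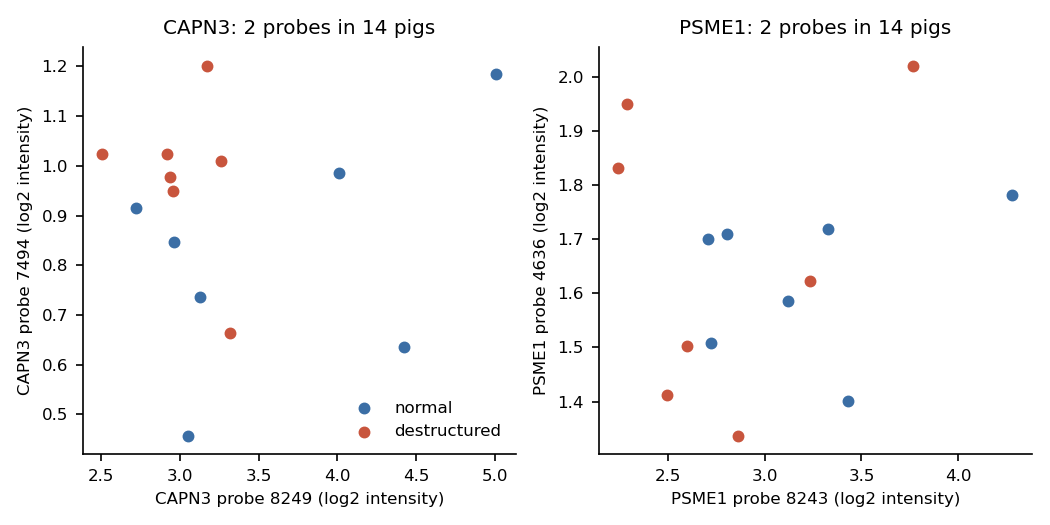
Log2 intensity of the 2 probes listed for CAPN3 (left panel) and for PSME1 (right panel), 1 point per pig, 7 normal and 7 destructured. Over the 14 pigs r was 0.084 for CAPN3 and 0.15 for PSME1, and no line of points is visible in either panel.

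PSME3 (Entrez gene 397625), the subunit that builds the nuclear proteasome activator, was measured by probe 5400. Normal pigs lay between 0.93 and 1.51 with a median of 1.31. Destructured pigs lay between 0.61 and 1.39 with a median of 1.09. Destructured replicates 7 and 1 (0.61 and 0.66) were below every normal pig, and 6 of 7 destructured pigs were below the normal mean. Means were 1.27 ± 0.214 and 1.00 ± 0.283 (SD, n = 7 each). This gave a log2 fold change of -0.27 (SE 0.14, adjusted p = 0.441 by limma), 1.21-fold lower, with a 95% interval from 0.672-fold to 1.02-fold. Its exact two-sided permutation p of 0.0682 was the smallest among the 8 probes, where 0.000583 is the smallest these groups allow.

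PSME3 was the probe whose value depended least on which array part was read, with -0.28 from the left and -0.26 from the right parts. Without the discordant part it was -0.24. With position medians removed it was -0.15, and on the deposited scale it was -0.021. On that scale the array medians of destructured pigs were higher by 0.22 on average (exact two-sided permutation p = 0.128).

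**Figure D4:**
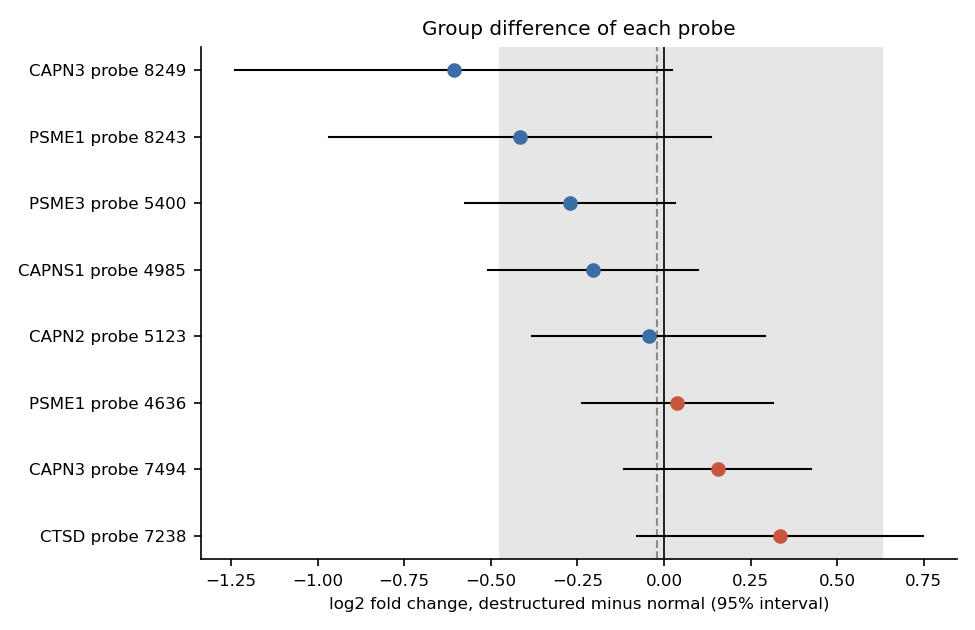
Log2 fold change (destructured minus normal, horizontal axis) of each probe as a point, with its 95% interval as a line; the grey band holds the central 95% of all 4608 probes (-0.47 to 0.63) and the dashed line is their median. All 8 intervals include 0, and CAPN3 probe 8249 at -0.61 is the only point outside the band.

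For all 8 probes the spread between the left and right part of an array was larger than the spread between pigs of a group. The standard deviation between parts ran from 0.26 for PSME3 to 1.00 for CAPN3 probe 8249 on the log2 scale. The pigs of a group, each the mean of its parts, had standard deviations of 0.25 and 0.65 for these probes. The same order held for 77.4% of all probes, so it is not particular to these. Without normal replicate 3 the spread between parts still exceeded that between all 14 pigs for 6 of 8, the exceptions being CAPN2 (0.29 against 0.30) and CTSD (0.24 against 0.39). The spread between pigs still included normal replicate 3 here, so the compared spreads cover different pigs, and the CAPN2 values are close. Across pigs the parts of a probe correlated from -0.070 for CAPNS1 to 0.38 for PSME3, where the median over all probes was 0.19. Without normal replicate 3 these correlations ran from -0.086 for CAPNS1 to 0.53 for CTSD, and the median over all probes was 0.27.

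**Figure D5:**
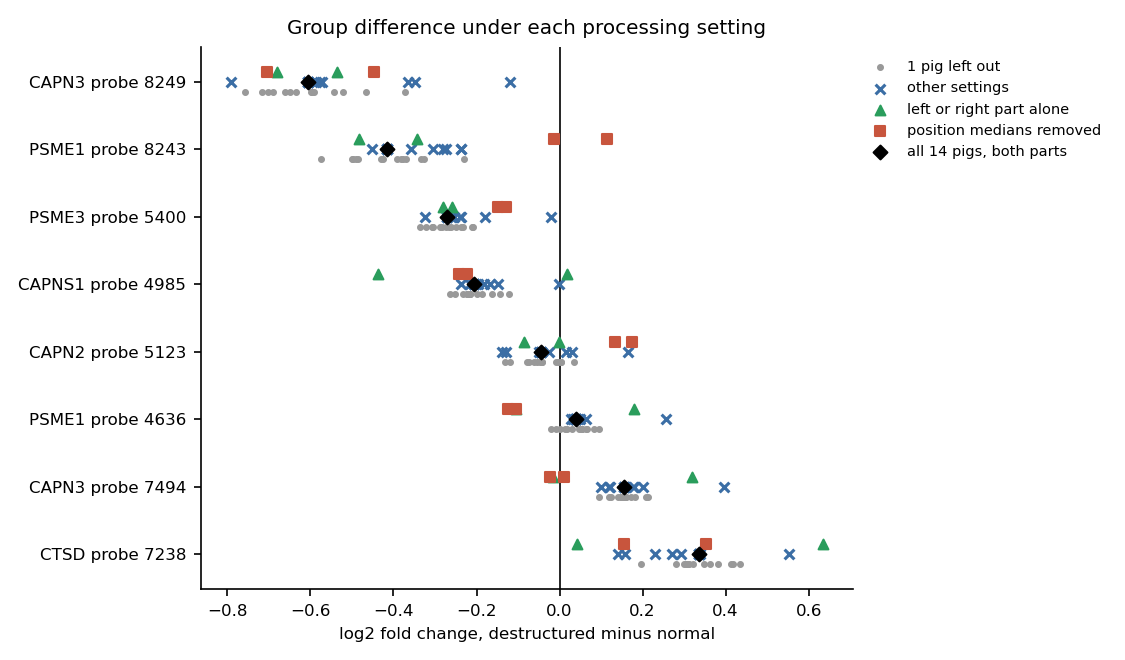
Log2 fold change of each probe (horizontal axis) under every setting that kept the probe by itself: all pigs with both parts (black), 1 pig left out (grey), the left or right part alone (green), position medians removed with and without the discordant part (red), and the other settings (blue). CAPN3 probe 8249, CTSD and PSME3 stay on 1 side of 0 in all of them, and the other 5 probes cross it.

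Other genes of the same pathways were few on the array. Of 11 genes of the calpain system, its inhibitor calpastatin included, 3 were measured, all described above, and the same holds for the 1 of 20 cathepsins and related lysosomal genes and the 2 of 47 proteasome genes. From 34 genes of the ubiquitin pathway 1 was measured, VCP, an ATPase that pulls ubiquitinated proteins out of complexes, at -0.088 (SE 0.26, adjusted p = 0.915 by limma). Among 19 other proteases and inhibitors 2 were measured, with 3 probes: 1 for the matrix metalloprotease MMP2 (-0.14, SE 0.17) and 2 for the membrane aminopeptidase ANPEP. Of the ANPEP probes 5115 had the smaller p (0.27, SE 0.15, adjusted p = 0.444 by limma), and 4970 had the opposite sign (-0.22, SE 0.20). None of these passed at an unadjusted p under 0.05 or by the exact permutation test.

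Of 16 myofibrillar proteins that calpains cut, 5 were measured, with 28 probes. By limma 0 of 28 passed, and 0 passed by the exact permutation test. At an unadjusted p under 0.05 there were 7 of 28, a larger share than the 13.0% of all probes. The 28 probes come from only 5 genes and are not independent, and this difference in share was not tested. Of the 28 probes 14 were positive and 14 negative, with a median of -0.0058. The smallest p-values belonged to the fast troponin I TNNI2 on probe 7658 (0.45, SE 0.13, adjusted p = 0.0967), the fast troponin T TNNT3 on probe 8542 (-0.42, SE 0.12, adjusted p = 0.104) and the slow troponin T TNNT1 on probe 5964 (-0.42, SE 0.15, adjusted p = 0.225). These signs are those of single probes. TNNI2 probe 8806 was at -0.62 (SE 0.26) and probe 7387 at 0.26 (SE 0.12). TNNT3 probe 7659 was at 0.32 (SE 0.15) and probe 6650 at -0.37 (SE 0.15). TNNT1 probe 4624 was at 0.11 (SE 0.15) and probe 5668 at -0.020 (SE 0.16). TNNT3 probe 8542 was dim, at percentile 4.34 of the mean level over all probes. With 14 probes on each side, the list was split evenly around 0, and its median was near that of all probes.

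Markers of other cell types were sparse too. Adipocyte markers were measured for 2 of 9 genes, connective tissue for 2 of 11, immune cells for 2 of 11 and endothelium for 1 of 6, with 8 probes in all, none of them called by limma, under an unadjusted p of 0.05 or by the exact permutation test. Blood (6 genes) and nerve (5 genes) had none. The 2 connective tissue probes averaged 2.00 to 3.77 per pig in normal and 1.63 to 2.65 in destructured muscle, and the 2 adipocyte probes 1.72 to 2.69 and 2.17 to 2.47; their part in the values of the 8 probes was not tested. In whole muscle, fewer cells of a type and less RNA per cell cannot be told apart.

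The named probes most like each gene's brighter probe were found by Pearson's r over the 14 pigs after subtracting group means, as a description. For CAPN3 probe 8249 they were listed for MYOZ1 (0.83), RYR1 (0.82) and TPI1 (0.82). For CAPN2 they were TNNC2 (0.71), TPM1 (0.66) and ALDH2 (0.64), and for CAPNS1 they were GAPDH (0.64), NDUFA4 (0.61) and PLCD4 (0.60). CTSD had COX8H (0.80), HSP90AA1 (0.78) and FHL1 (0.74), and without normal replicate 3 these fell to 0.62, 0.58 and 0.50. PSME1 probe 8243 had MYLPF (0.86), TNNC2 (0.82) and SLN (0.81), and PSME3 had TPM2 (0.79), MYLPF (0.77) and RPSA (0.76). Without normal replicate 3 the values also fell for PSME1 probe 8243 (0.78, 0.70 and 0.74) and for CAPNS1 (0.60, 0.54 and 0.50). For PSME3 they rose, and for CAPN2 and CAPN3 probe 8249 some rose and others fell. Each set of 3 holds the highest values among 507 or 508 named probes, all read from the same arrays; TPM2, RPSA and MYOZ1 share the table column of the probe they match. Among the 8 probes themselves the strongest such correlations were negative, -0.61 between CAPN3 probe 7494 and PSME3 and -0.53 between CAPN3 probe 7494 and CAPN2.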

How the data were processed

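Per the labels' protocols, each array was first hybridised with a common oligonucleotide to check the DNA of every spot and then with the muscle cDNA, and spots were quantified from a phosphor image on a fixed grid (BZscan). Background correction, scaling and any use of the first signal in the values are not given in the sources used here. The authors deposited linear spot intensities (4608 probes, 28 columns, 0.0393 to 443.3), and all were used. The pig is the replicate, and the number of arrays limits the precision.

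After log2 and quantile normalization over the 28 columns, left and right parts were averaged per pig. Groups were compared with limma 3.58.1 (lmFit, eBayes; R 4.3.3), with no covariate and no filter on dim probes, with Benjamini-Hochberg adjusted p-values (over all probes) and a threshold of 0.05. Intervals are 95% intervals of the moderated fit. Exact permutation tests used all 3432 splits of the pigs. Gene names come from an old platform annotation; the Entrez identifiers of all 8 probes carry the same symbol in RefSeq's gene table. Every probe of the 6 genes is named, with up to 3 further genes per pathway list by smallest p, and the 3 most similar named probes per gene. Members, lists and alternatives were chosen with earlier results of these data known.

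The fit was tested on simulated data for destructured against normal (4608 probes, 200 of them changed, 50 at each size). Noise was normal and independent between probes, at each probe's own spread between pigs, with no gaps between array parts and no effect of position. It recovered 28% at a log2 change of 0.5, 90% at 1, 98% at 1.5 and 100% at 2, with 6 false calls, and made 0 calls with no change. In all, 32 alternatives were run, 31 planned and 1 added after these values were seen. Plots used matplotlib 3.10.9 (Python 3.11.15).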

Additional observations from a re-analysis of the deposited data

Results flagged for a closer look

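The highest and lowest pig of each group of 7 were set against Dixon's 95% critical value, on the distance to the nearest pig as a share of the range of the group; chance exceeds it in about 1 of 20 groups. It was exceeded in 1 of 32 groups checked, the correlation between left and right array part in normal pigs, where replicate 3 had 0.380 and the nearest pig 0.868. None of the 8 probes described above, nor the 6 probes named from the pathway lists, had such a pig in either group. For probes the check read the mean of both parts, and it can miss several high pigs that lie near each other. Normal replicates 1, 3 and 2 for CAPN3 probe 8249 are such a case, so its outcome does not show that no pig was unusual.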

How the results depend on the processing

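None of the 8 probes was called under any of the 31 alternatives that gave such a count; filtering out the dimmest 50% of probes dropped CAPN2, PSME3 and CAPN3 probe 7494. The number of all probes called, 30, was 2 on the deposited scale, 6 with median centring, 49 and 56 without the dimmest 25% and 50%, 13 and 1 from the left and right parts alone, 135 without the discordant part (normal replicate 3, right), 162 without the left part of normal replicate 1 as well, 8 with position medians removed, 53 with log2(intensity + 1), 6 with trend and robust variances, 129 with array weights, 3 without the pigs sharing a number, 59 by the exact permutation test, 111 at a threshold of 0.1, and from 2 to 84 with 1 pig left out. The replicate numbers in the titles mark array parts: with that number as a replicate block and the pig as a random block, 107 probes were called, and none of the 8. Leaving out 1 pig changed the sign of CAPN2 (-0.13 to 0.035), PSME1 probe 4636 (-0.020 to 0.095) and VCP (-0.31 to 0.030). Other reversed signs were, for CAPN2, 0.17 on the deposited scale, 0.030 without the discordant part (0.016 without the left part of normal replicate 1 as well), 0.13 with position medians removed and 0.18 with that part out too; for CAPN3 probe 7494, -0.017 (right parts), -0.022 (position medians and that part removed) and -0.23 (2 probes averaged); for CAPNS1, 0.019 (left parts); for PSME1 probe 4636, -0.11 (right parts), -0.12 and -0.11 (position medians removed, with and without that part) and -0.19 (2 probes averaged); for PSME1 probe 8243, 0.11 (both changes). MMP2 was at 0.052 (deposited scale), 0.047 (right parts), 0.033 and 0.15 (without 1 or 2 parts), 0.16 and 0.18 (position medians removed), and VCP at 0.17 (deposited scale) and 0.21 (right parts). The correlation of the CAPN3 probes was -0.036 without the 2 farthest pigs and -0.29 in destructured pigs, and that of the PSME1 probes -0.39 without the 2 farthest. From the right parts alone 1 of the 8 probes was positive, against 3. TNNI2 probe 7658 and TNNT1 probe 5964 kept their sign in all 30 alternatives and passed with array weights alone (adjusted p by limma 0.0258 and 0.0374). TNNT3 probe 8542 kept its sign in the 28 that held it. It passed in 2, without the discordant part (adjusted p by limma 0.0320) and with the added exclusion (0.0310). Other probes of these genes had the opposite sign in the main fit, as given above. The cause of these changes was not tested. Signal over background is not given, so what dimness limits could not be told.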
